A study of Bos taurus with 32 samples.

Results

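The depot difference, visceral fat minus subcutaneous fat within 1 steer, was compared between steers fed a control diet and steers fed a high fat diet for 91 of the 672 miRNAs on a bovine array. These 91 miRNAs were those called detected on all 32 arrays, so that each of the 16 steers had a measured value in both depots. The steers were Hereford by Aberdeen Angus crossbreds in their second year of life, fed a ration of barley grain and silage, and the high fat diet had flaxseed added to it. Of the 4 groups of 8 arrays, 2 were backfat, called subcutaneous, and perirenal fat, called visceral, of the 8 control steers, and 2 were the same depots of the 8 high fat steers. Total RNA of whole tissue was hybridized, which holds the RNA of adipocytes and of the stromal, vascular and blood cells around them. In such samples, fewer cells of a type and less RNA per cell cannot be told apart. The steers of one diet never received the other, so diets were compared between animals and depots within them.

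MicroRNAs are short RNAs that are cut from hairpin precursors and guide a silencing complex to messenger RNAs, mostly through the seed near their 5′ end. Fat depots differ in their developmental origin, their blood supply and their mix of adipocytes, preadipocytes and immune cells, and several miRNAs are known to mark such differences. The miR-199 and miR-214 genes are active in fibroblasts and other mesenchymal cells, miR-10 genes lie within the HOX clusters that record position along the body, and miR-378 is a miRNA of adipocyte differentiation and lipid storage. Names are given without the bta prefix of the array.

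Values are log2 intensities after each array was divided by its 75th percentile over the 91 miRNAs, so a difference of 1 is a factor of 2 relative to the bulk of these miRNAs. The summed intensity of an array was 26021 to 79290 in control steers and 96888 to 366714 in high fat steers. Each group of 8 lay on its own slide, so depot and slide, and diet and slide, cannot be told apart. Among the other cell types that fat can hold, no muscle miRNA and no kidney or liver miRNA was detected on all 32 arrays. The summed level of the muscle list reached at most 0.228 of the 75th percentile on any array. That of the kidney and liver list reached 0.277 in visceral fat of control steers (median 0) and 0.463 in that of high fat steers (median 0.0361). In subcutaneous fat it reached at most 0.0297. In high fat steers, 3 muscle miRNAs were detected on all 8 subcutaneous arrays and 2 on all 8 visceral arrays. There, 1 kidney or liver miRNA was detected on all 8 arrays of each depot. Steer 108 of the control diet stood apart, because its subcutaneous array had miR-196a, a HOX miRNA, at -2.43, close to the -2.25 of its visceral array. The arrays with the fewest detected miRNAs were the subcutaneous array of control steer 405, with 118, and the visceral array of control steer 111, with 115. The counts that follow are also given without these 3 steers.

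Of the 91 miRNAs, 13 differed between depots on both diets, all in the same direction, and 57 passed the test on neither diet. The mean depot difference, called or not, had the same sign on both diets for 80 miRNAs and opposite signs for 11. Across the 91 miRNAs, which are not independent replicates, the means of the diets had a Pearson r of 0.88, a Spearman rho of 0.862 and a slope of 1.04. In control steers 20 of the 91 miRNAs passed the limma test at an adjusted p under 0.05, 10 higher and 10 lower in visceral fat. Of all 233 miRNAs tested, 15.9 percent passed, 5.58 percent higher and 10.3 percent lower. In high fat steers 27 passed, 14 higher and 13 lower, against 20.2 percent of all tested, 8.15 percent higher and 12 percent lower. The depot difference was kept, meaning past the threshold on both diets in one direction, for 13 miRNAs, against 8.15 percent of all tested. It was past the threshold in control steers alone for 7 (7.73 percent of all tested) and in high fat steers alone for 14 (12 percent). It was reversed for 0. The test of the diet difference itself was passed by 0 of the 91 (1.29 percent of all tested).

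The balance of higher and lower calls depended on the scaling. In high fat steers, 0 were higher and 42 lower without scaling, 2 and 25 with the labelling spike-ins, 5 and 22 with miR-181a as the reference, 30 and 7 with the median of the members, 37 and 17 after normexp correction, and 2 and 1 in the deposited values. In control steers, 1 was higher and 7 lower without scaling, 1 and 4 with the spike-ins, 5 and 10 with miR-181a, 0 and 2 after normexp correction, and 0 and 4 in the deposited values. With the 75th percentile over all miRNAs of the array, 0 passed on either diet. Other settings were nearer to an even balance. In high fat steers, 21 were higher and 17 lower with quantile normalization, and 19 and 16 with spot intensities. In control steers these were 6 and 8, and 9 and 9, with 9 and 10 for the median of the members.

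**Figure D1:**
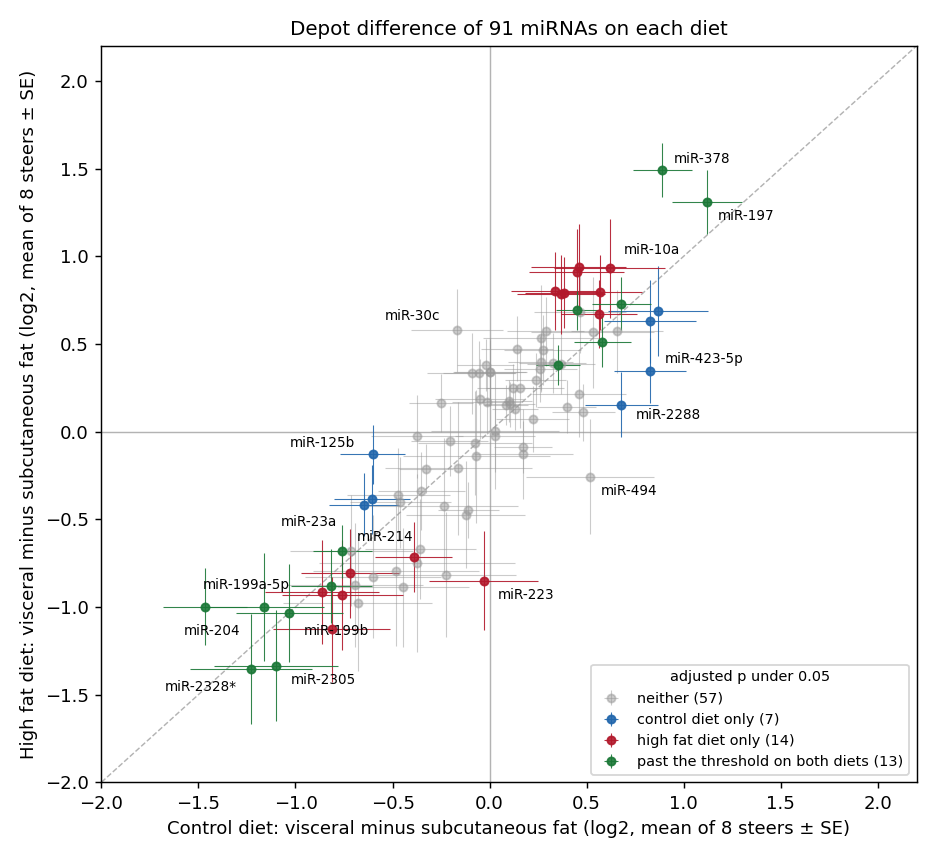
Each point is 1 of the 91 miRNAs, with its mean depot difference (log2, visceral minus subcutaneous fat, 8 steers) in control steers on the x axis and in high fat steers on the y axis. Bars are standard errors of the limma fit, colours give the diets on which the adjusted p was under 0.05, and the dashed line marks equal differences. The points follow the line with a slope of 1.04, and the 13 green points run from -1.47 (miR-204) to 1.12 (miR-197) on the x axis.

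These counts depended on which steers and which spread entered the test. The spread between steers was larger in control steers, with a median SD over miRNAs of 0.730 against 0.383, and was larger there for 79 of the 91. One sign in all 8 steers was seen for 4 of the 91 in control steers (3.43 percent of all tested) and for 26 in high fat steers (21 percent). When each diet was fitted with its own spread, 3 passed in control steers and 55 in high fat steers, and 3 were kept. Without control steers 108, 111 and 405, which were left out after their values had been seen, 35 passed in control steers, 47 in high fat steers and 29 were kept, 11 of them among the 13.

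Among the kept miRNAs that were higher in visceral fat, miR-378 and miR-197 had the largest differences. Copies of the gene of miR-378 overlap PPARGC1B, which encodes a coactivator of mitochondrial genes, and CALCR in the RefSeq annotation of the ARS-UCD2.0 assembly. Within steers its difference ran from 0.24 to 1.45 in control steers, with a median of 1.002, and from 0.83 to 1.94 in high fat steers, with a median of 1.60. Visceral fat was higher in all 16 steers, and the ranges of the diets overlapped. The mean was 0.89 (SE 0.15, 1.85-fold, limma adjusted p = 0.000796) in control steers and 1.49 (SE 0.15, 2.81-fold, limma adjusted p = 3.3e-06) in high fat steers.

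The within-steer differences of miR-197 ran from 0.17 to 2.02 in control steers, with a median of 1.19, and from 0.35 to 1.85 in high fat steers, with a median of 1.32. All 16 steers had more of it in visceral fat. Its mean was 1.12 (SE 0.18, 2.18-fold, limma adjusted p = 0.000506) and 1.31 (SE 0.18, 2.48-fold, limma adjusted p = 7.82e-05). One sign in all 16 steers was seen for 3 of the 91 miRNAs, which were miR-197, miR-378 and miR-214, and for 3 percent of all tested.

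The other kept miRNAs that were higher in visceral fat were miR-486, miR-331, miR-320 and let-7d. The gene of miR-486, which is abundant in red blood cells and muscle, overlaps ANK1. Its differences ran from -0.22 to 1.33 (median 0.78) in control steers, where control steer 405 was the only steer below 0, and from 0.20 to 1.13 (median 0.71) in high fat steers. The means were 0.68 (SE 0.15, limma adjusted p = 0.00565) and 0.73 (SE 0.15, limma adjusted p = 0.00297). For miR-331 the means were 0.45 and 0.69 (SE 0.11, limma adjusted p = 0.0125 and 0.000433), and for miR-320 they were 0.58 and 0.51 (SE 0.15, limma adjusted p = 0.0137 and 0.0207). The let-7d difference was the smallest of the 13, at 0.35 and 0.38 (SE 0.11, limma adjusted p = 0.0453 and 0.0242), and was above 0 in 8 of 8 control steers and 6 of 8 high fat steers. Without scaling, where the median of the 91 miRNAs shifted to -0.37 in control steers and -0.72 in high fat steers, miR-486, miR-331 and miR-320 turned negative in high fat steers and let-7d on both diets, while miR-378 and miR-197 stayed positive. The unscaled difference of miR-378 was 0.51 (limma adjusted p = 0.471) in control steers and 0.62 (limma adjusted p = 0.0984) in high fat steers.

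The kept miRNAs that were lower in visceral fat held a mesenchymal group. Of the 5 members of the stromal and smooth muscle list, miR-199a-5p, miR-199a-3p, miR-199b and miR-214 fell on both diets, and the 4 kept their sign under all 7 other scalings. After normexp correction, however, the difference of miR-199b was -0.04 in control steers and -0.89 in high fat steers. Among all alternatives, the control difference of miR-199a-5p came as near to 0 as -0.08. The fifth, miR-145, a miRNA of smooth muscle, went the other way, with means of 0.56 (SE 0.19, limma adjusted p = 0.0573) in control steers and 0.67 (SE 0.19, limma adjusted p = 0.0207) in high fat steers, and a negative value in high fat steers without scaling. The list median was -0.82 in control steers and -0.88 in high fat steers, beside 0.00 and 0.02 over all 233 miRNAs tested. In the annotation, the genes of miR-199a, miR-199b and miR-214 overlap dynamin genes (DNM1, DNM2 and DNM3), with one miR-199a copy within 10000 bases of miR-214.

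The summed level of the vascular markers had the opposite direction, which was not tested and did not hold for the detection of each marker. The summed scaled level of the 4 vascular miRNAs was 0.609 to 1.52 in subcutaneous and 0.863 to 2.42 in visceral fat of control steers, and 3.64 to 4.86 and 5.11 to 8.25 in high fat steers, where the depots did not overlap. Of the 4, miR-222 was detected on 2 subcutaneous and 0 visceral arrays of control steers, and on 8 and 4 arrays of high fat steers. The vascular miRNAs detected on all arrays of a group numbered 2 in subcutaneous and 1 in visceral fat of control steers. In high fat steers they numbered 4 and 3. miR-126, which was detected on every array, had means of 0.66 and 0.57 and passed on neither diet. The summed level of the 7 stromal and smooth muscle miRNAs on the array was 2.92 to 4.42 in subcutaneous and 2.37 to 4.39 in visceral fat of control steers, and 4.87 to 6.12 and 3.66 to 5.22 in high fat steers. The part of vascular cells in the differences of the stromal miRNAs was not tested.

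For miR-214, the within-steer differences ran from -1.80 to -0.03 in control steers, with a median of -0.72, and from -0.99 to -0.24 in high fat steers, with a median of -0.76. All 16 steers had less of it in visceral fat. Its means were -0.76 (SE 0.15, limma adjusted p = 0.00266) and -0.68 (SE 0.15, limma adjusted p = 0.00516). For miR-199a-5p the differences ran from -2.70 to 1.20 in control steers, with a median of -1.33, but only from -1.55 to -0.64 in high fat steers, with a median of -1.004. In control steers, 7 of 8 steers were below 0 and steer 405 was the exception, as it was for miR-199a-3p and miR-199b. The means of miR-199a-5p were -1.16 (SE 0.31, limma adjusted p = 0.0173) and -1.002 (SE 0.31, limma adjusted p = 0.0273), those of miR-199b were -1.03 and -1.03, and those of miR-199a-3p were -0.82 and -0.88.

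The remaining kept miRNAs lower in visceral fat were miR-204, miR-2328* and miR-2305. The gene of miR-204, a miRNA known from mesenchymal progenitors, where it favours adipocyte over bone fate, overlaps TRPM3. Its differences ran from -2.35 to 0.11 (median -1.54) in control steers, with steer 405 again the only one above 0, and from -1.48 to -0.17 (median -1.19) in high fat steers. The means were -1.47 (SE 0.22, 2.76-fold lower, limma adjusted p = 0.000399) and -0.998 (SE 0.22, limma adjusted p = 0.00469). miR-2328* (means -1.23 and -1.35, limma adjusted p = 0.014 and 0.00667) and miR-2305 (means -1.10 and -1.33, limma adjusted p = 0.0261 and 0.00756), which have no established role in fat, were lower in 6 of 8 control steers and 7 of 8 high fat steers. In high fat steers steer 103 had the lowest value and steer 411 the highest for both.

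**Figure D2:**
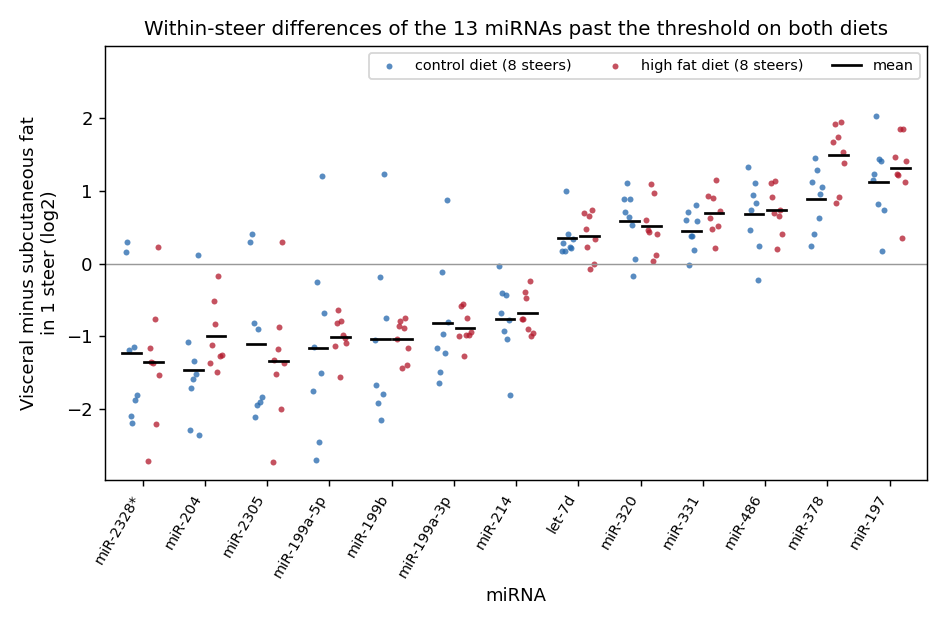
Visceral minus subcutaneous fat in each steer (log2) for the 13 miRNAs past the threshold on both diets, with control steers in blue, high fat steers in red and the mean of 8 steers as a black bar. The 2 diets overlap for every miRNA. Single control steers lie on the other side of 0 for miR-204, the 3 miR-199 miRNAs, miR-320, miR-331 and miR-486. For miR-2328* and miR-2305, 2 control steers and 1 high fat steer do, and for let-7d not all high fat steers lie above 0.

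In control steers alone, miR-2478, miR-423-5p, miR-193a-5p and miR-2288 were higher in visceral fat and miR-23a, miR-125b and miR-99a lower. The differences of miR-423-5p ran from -0.41 to 1.46 in control steers, with a median of 0.90 and steer 405 alone below 0, and from -0.33 to 1.05 in high fat steers, with a median of 0.29. Its means were 0.83 (SE 0.19, limma adjusted p = 0.00565) and 0.35 (SE 0.19, limma adjusted p = 0.196), and the diet difference was -0.48 (95% interval -1.04 to 0.07, limma adjusted p = 0.52). For miR-2288 the means were 0.68 and 0.15 with a diet difference of -0.52 (-1.09 to 0.04, limma adjusted p = 0.479).

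miR-125b belongs to a family that is expressed in progenitor cells and restrains differentiation in several lineages. Its differences were -1.30 to 0.12 in control steers (median -0.63) and -0.65 to 0.48 in high fat steers (median -0.28). The means were -0.60 (SE 0.17, limma adjusted p = 0.0215) and -0.13 (SE 0.17, limma adjusted p = 0.678), and the diet difference was 0.47 (-0.03 to 0.98, limma adjusted p = 0.479). miR-23a (means -0.65 and -0.42) and miR-99a (means -0.60 and -0.39) had the same sign on both diets, as did miR-2478 (0.87 and 0.69) and miR-193a-5p (0.83 and 0.63), whose limma adjusted p in high fat steers was 0.0704 and 0.0718.

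In high fat steers alone, 8 miRNAs were higher in visceral fat (miR-1281, miR-10a, miR-2382*, miR-2425*, miR-365-3p, miR-139, miR-1225-3p and miR-145) and 6 lower (miR-2316, miR-2374, miR-1343, miR-223, miR-2893 and miR-155). All 21 miRNAs past the threshold on 1 diet had the same sign on the other. The gene of miR-10a overlaps HOXB3. Its differences ran from -1.25 to 2.54 in control steers, with a median of 0.43 and 6 of 8 steers above 0, and from 0.50 to 1.36 in high fat steers, with a median of 0.93 and all 8 above 0. The means were 0.62 (SE 0.28, limma adjusted p = 0.188) and 0.93 (SE 0.28, limma adjusted p = 0.027), with a diet difference of 0.31 (-0.54 to 1.17, limma adjusted p = 0.898). The other HOX member, miR-10b, whose gene overlaps HOXD4, had means of 0.16 and 0.25 and passed on neither diet.

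Lower in visceral fat in high fat steers were miR-223, a miRNA of neutrophils and monocytes, and miR-155, a miRNA induced in activated immune cells. The differences of miR-223 ran from -0.64 to 0.82 in control steers, with a median of -0.06, and from -2.85 to 0.25 in high fat steers, with a median of -0.36. Its mean of -0.85 (SE 0.28, limma adjusted p = 0.0424) in high fat steers lay well below its median, and 2 of the 8 steers were above 0. For miR-155 the mean was -0.39 (SE 0.20, limma adjusted p = 0.242) in control steers and -0.71 (SE 0.20, limma adjusted p = 0.0167) in high fat steers, where all 8 steers were below 0. The third member of the blood and immune list, miR-486, was higher in visceral fat on both diets, so its 3 members did not share a direction. Summed over the 10 miRNAs of that list, the scaled level was 0.303 to 0.603 in subcutaneous and 0.436 to 0.646 in visceral fat in control steers, and 0.318 to 1.1 and 0.307 to 0.433 in high fat steers, with miR-146a not detected on any array. The part of blood and immune cells in these differences was not tested.

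**Figure D3:**
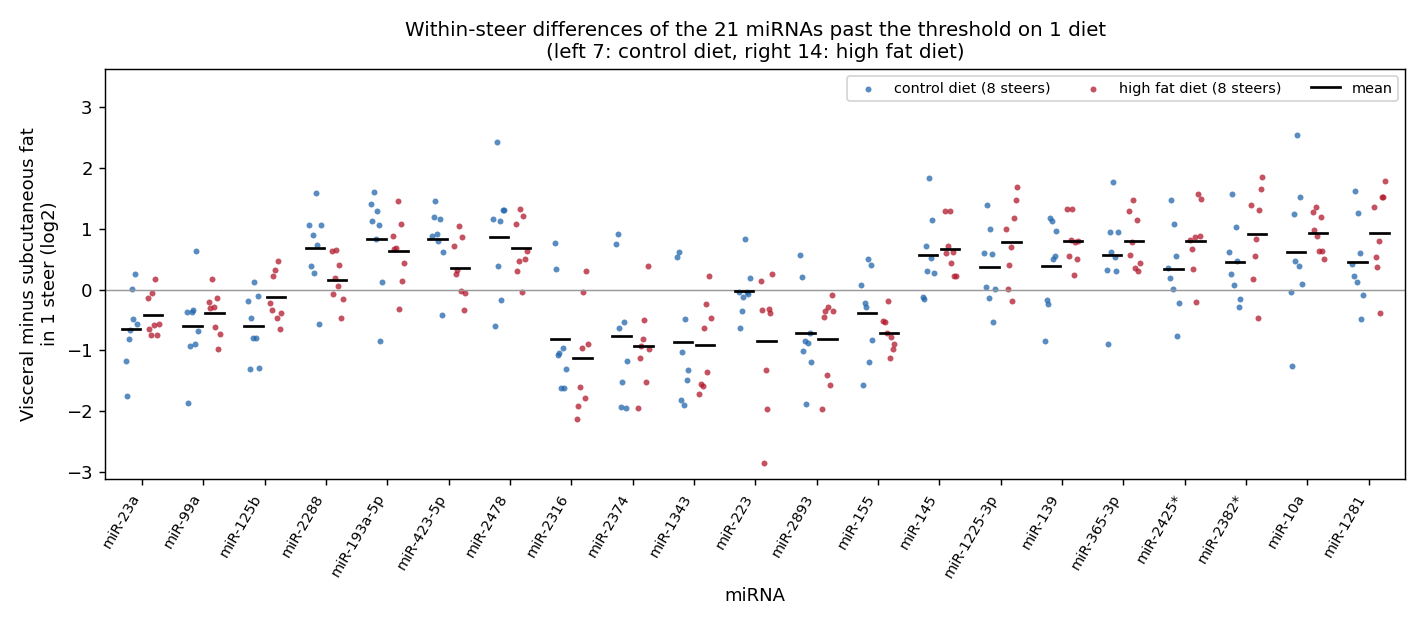
Visceral minus subcutaneous fat in each steer (log2) for the 21 miRNAs past the threshold on 1 diet, the 7 of the control diet on the left and the 14 of the high fat diet on the right. Control steers are blue, high fat steers red, and black bars are means of 8 steers. Both means lie on the same side of 0 for all 21.

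The diet difference of the depot difference, high fat minus control, ran from -0.82 (miR-223) to 0.75 (miR-30c) and was under 0.5 in size for 85 of the 91 miRNAs. At an unadjusted p under 0.05 the limma test found 2, miR-378 and miR-30c, and the exact permutation test of 8 steers against 8 found 1, miR-378. The diets' 8 differences did not overlap for 0 of the 91, against 2.15 percent of all tested. For miR-378 the diet difference was 0.60 (95% interval 0.14 to 1.06, limma adjusted p = 0.191, two-sided exact permutation p = 0.0157), with the larger depot difference in high fat steers. It ranged from 0.11, without scaling (limma adjusted p = 0.875), to 1.18, with quantile normalization (limma adjusted p = 0.00772). For miR-30c, of the miR-30 family, which favours adipocyte differentiation, it was 0.75 (0.04 to 1.45, limma adjusted p = 0.355, exact permutation p = 0.051). Its within-steer differences ran from -1.28 to 1.49 in control steers, with 3 of 8 above 0, and from 0.22 to 0.77 in high fat steers, with 8 of 8 above 0.

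For miR-494, a miRNA of the imprinted DLK1-DIO3 cluster, the means were 0.52 in control steers and -0.26 in high fat steers, a difference of -0.77 (-1.76 to 0.21, limma adjusted p = 0.598). Its control values ran from -1.42 to 2.55, so the opposite signs of the means lay within the spread between steers. The other 10 miRNAs with opposite signs were let-7c, miR-127, miR-140, miR-23b-3p, miR-26a, miR-26b, miR-30c, miR-30f, miR-34a and miR-361. Without control steers 108, 111 and 405, miR-140, a miRNA of cartilage and mesenchymal cells, was the only member that reversed, with -0.35 in control steers, 0.33 in high fat steers and a difference of 0.68 (limma adjusted p = 0.0404).

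These tests bound the diet difference only loosely. The 95% interval lay within 1 log2 unit on either side of 0 for 56 of the 91 miRNAs, and reached 0.339 to 1.52 to either side of the estimate, with a median of 0.667. For the kept miRNAs it was tightest around no change for let-7d (0.03, -0.31 to 0.37), and for miR-214 the diet difference was 0.08 (-0.38 to 0.53) and for miR-486 0.05 (-0.40 to 0.51). For miR-199b it was 0.00 with a wider interval of -0.84 to 0.83.

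**Figure D4:**
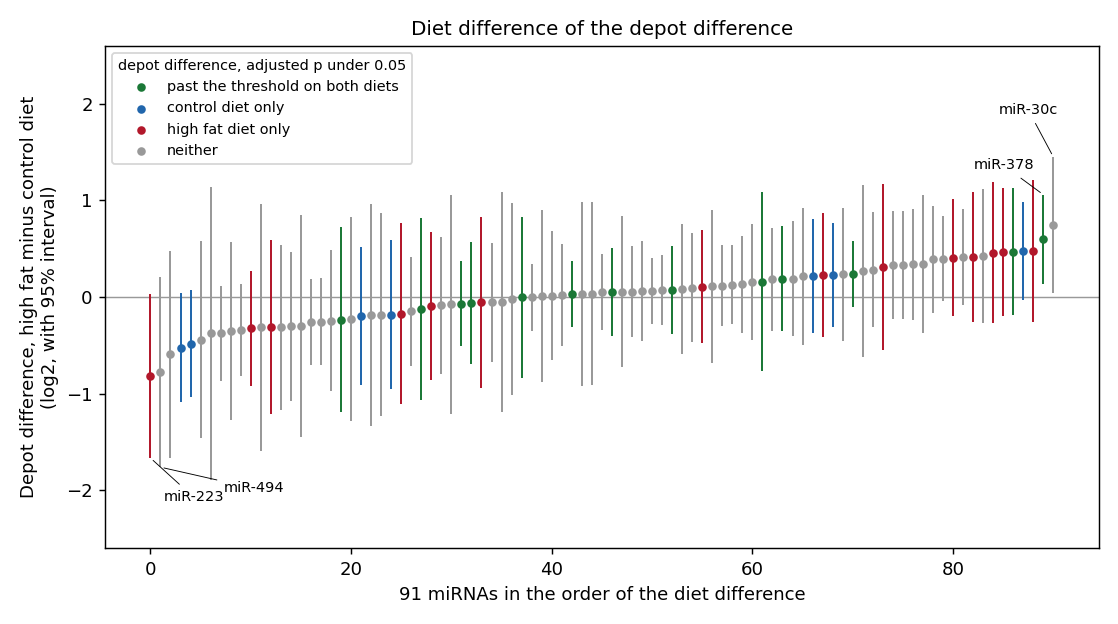
Diet difference of the depot difference (log2, high fat minus control diet) with its 95% interval from limma for each of the 91 miRNAs, in the order of the value. Colours give the diets on which the depot difference itself passed the threshold, 85 of the 91 values are under 0.5 in size, and the interval lies above 0 only for miR-378 and miR-30c.

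The within-steer differences moved with how bright the arrays of a steer were. The log2 75th percentile of the visceral array minus that of the subcutaneous array was -1.52 to 1.09 among control steers, with a mean of -0.38, and -1.77 to 0.43 among high fat steers, with a mean of -0.87. Steer 405 had the most positive value of the control diet and steer 302 that of the high fat diet, while steers 209 and 412 had the most negative. This quantity is subtracted in the scaling, so a miRNA whose unscaled intensity stays the same has a scaled difference that falls as it rises. An exact permutation test of Pearson's r, with Benjamini-Hochberg adjustment, was run over 182 relations, 91 miRNAs on 2 diets. It found 18 in control steers (11 positive, 7 negative) and 6 in high fat steers (all negative). The subtraction alone can make r negative, so the p-values of negative relations here and below do not test a relation apart from the scaling.

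Among the miRNAs named above, miR-199a-5p followed brightness closely in control steers, with r = 0.983 and rho = 1 over 8 steers (exact permutation p = 2.48e-05 and 4.96e-05, adjusted 0.0015 and 0.00226), and r = 0.951 without the 2 steers farthest from the median. In high fat steers its r was 0.469 and its rho 0.595 (exact permutation p = 0.245 and 0.132, adjusted 0.53 and 0.454), and r was 0.393 without the 2 farthest steers. miR-1281 followed it with the opposite sign on both diets, with r = -0.899 and -0.977 and rho = -0.952 and -1 (exact permutation p for r = 0.00248 and 2.48e-05, the latter the smallest that 40320 pairings can give, adjusted 0.0238 and 0.0015, and for rho = 0.00114 and 4.96e-05, adjusted 0.0173 and 0.00226). Without the 2 farthest steers its r was -0.748 and -0.935. The dim miRNAs miR-2382*, miR-2425* and miR-1225-3p had r between -0.97 and -0.895 on both diets, and the unscaled depot differences of these 4 were between -0.07 and 0.09. Some values were set to the common floor of the fit, 2 of 32 for miR-1281, 5 for miR-2425* and 1 for miR-1225-3p. miR-30c, with the largest positive diet difference, also followed brightness in control steers, with r = 0.894 (exact permutation p = 0.0028, adjusted 0.0243). In high fat steers its r was -0.607 (exact permutation p = 0.11, adjusted 0.354).

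Of the kept miRNAs higher in visceral fat, miR-197 followed brightness in control steers, with r = -0.962 and rho = -0.905 (exact permutation p = 0.000546 and 0.00456, adjusted 0.00828 and 0.0396), and r = -0.847 without the 2 farthest steers. In high fat steers its r was -0.652 and its rho -0.405 (exact permutation p = 0.0746 and 0.327, adjusted 0.281 and 0.717), with r = -0.264 without the 2 farthest. In contrast, miR-378 had r = 0.502 and -0.489, and miR-214 had r = -0.39 and 0.0488 (exact permutation p of 0.207 or more, adjusted 0.507 or more), with rho of 0.405 and -0.286 for miR-378 and -0.643 and 0.31 for miR-214 (exact permutation p of 0.0962 or more, adjusted 0.389 or more). The brightness difference was then added as a covariate, with a slope for each miRNA that both diets shared, after these relations had been seen. In this fit the depot difference at equal brightness passed for 15 miRNAs in control steers and 12 in high fat steers. The diet difference was passed by 0. Of the 13 kept miRNAs, 6 were kept in this fit: miR-378, miR-197 and miR-331 higher in visceral fat, and miR-214, miR-2305 and miR-2328* lower. For miR-378 and miR-331, r had opposite signs on the diets (0.705 and -0.615 for miR-331), and their shared slopes were only 0.0167 and 0.0172. The fit thus hardly adjusted miR-378 and miR-331, and their place among the 6 is no test of brightness within a diet. The depot difference of miR-197 was 0.91 in control steers and 0.83 in high fat steers there. The difference of miR-378 was 0.90 in control steers and 1.51 in high fat steers there, and that of miR-214 was -0.81 and -0.80. For miR-199a-5p it was -0.81 (limma adjusted p = 0.0236) in control steers and -0.21 (limma adjusted p = 0.642) in high fat steers. The high fat value depends on the shared slope of 0.917, and a slope for high fat steers alone was not fitted. Before this adjustment, all 8 high fat steers lay between -1.55 and -0.64 for miR-199a-5p. Of the 14 miRNAs of the high fat diet alone, 2 passed on that diet in this fit, miR-139 and miR-223, while miR-1281 was at 0.13 and 0.18. Of the 7 of the control diet alone, 2 passed, miR-125b and miR-423-5p.

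**Figure D5:**
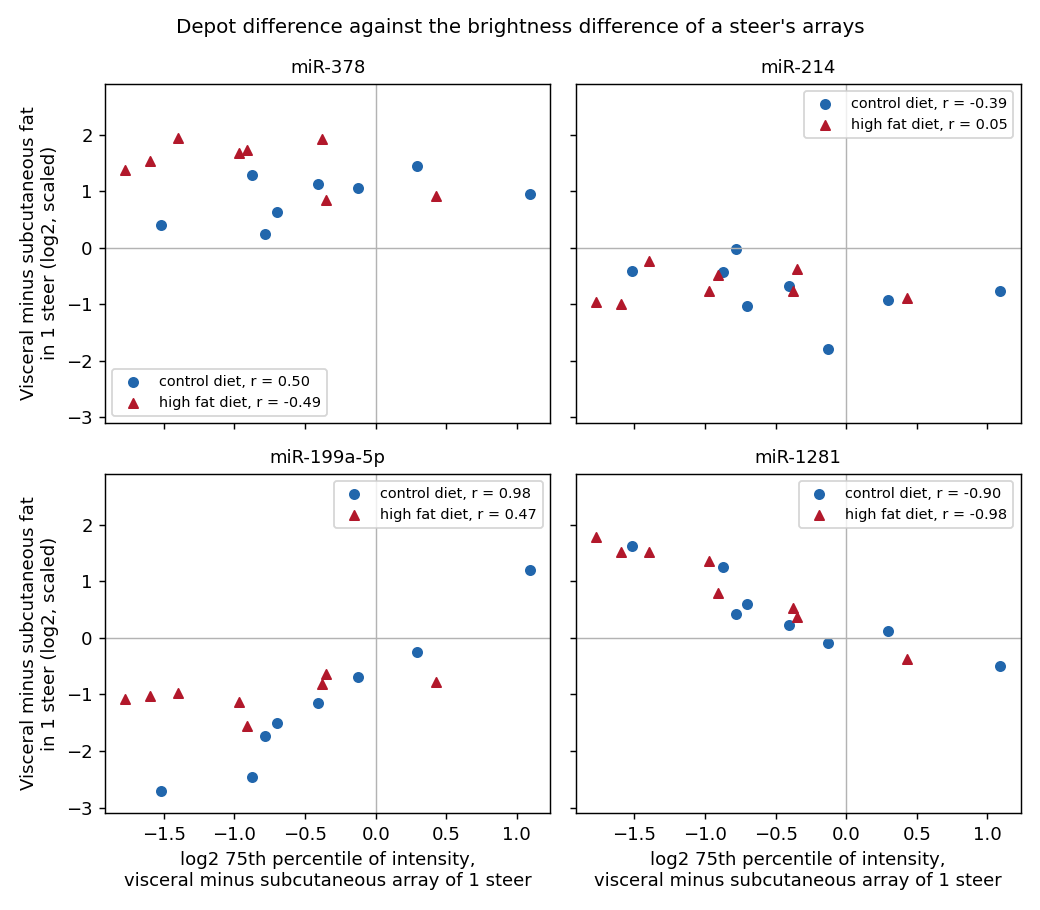
Visceral minus subcutaneous fat (log2, scaled) in each steer against the difference in the log2 75th percentile of intensity between the visceral and subcutaneous arrays of that steer, for 4 miRNAs, with 8 control steers as blue circles and 8 high fat steers as red triangles. miR-378 and miR-214 keep one sign at every brightness difference, miR-199a-5p rises with it in control steers (r = 0.98), and miR-1281 falls with it on both diets (r = -0.90 and -0.98).

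The depot pattern was also compared steer by steer. The SD over the 91 miRNAs of a steer's differences holds the noise of its arrays as well as the depot difference. It was 0.97 ± 0.19 (SD, n = 8) in control steers and 0.76 ± 0.21 (SD, n = 8) in high fat steers (two-sided exact permutation p = 0.0597, adjusted over 3 per-steer measures 0.179). The SD over the 91 miRNAs of the mean difference went the other way, at 0.54 in control steers and 0.64 in high fat steers. The per-steer SD therefore does not show that the depots lay farther apart on the control diet. Each steer's 91 differences had a Pearson r of 0.513 to 0.843 with the mean of the control diet for the 8 high fat steers. With the mean of the high fat diet, r was 0.601 to 0.811 for 5 control steers, 0.378 for steer 405, 0.086 for steer 108 and 0.009 for steer 111. The SD of steers 108, 111 and 405 was 0.942, 0.915 and 1.20, within the range of 0.623 to 1.22 over all control steers. With the mean of the other control steers, the r of steers 108, 111 and 405 was 0.032, -0.0129 and -0.0251.

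Of the other miRNA groups, few members passed. In the let-7 family, 9 of 9 miRNAs were members, let-7d rose on both diets and the list median was 0.17 in control steers and 0.13 in high fat steers. let-7a was at 0.08 and 0.15 (limma adjusted p = 0.799 and 0.407). Of the miRNAs known to promote adipocyte differentiation, 5 were members and only miR-378 passed, with miR-103 at 0.24 and 0.29 and miR-107 at 0.37 and 0.39, both of whose genes overlap pantothenate kinase genes. Of those known to restrain it, 3 were members, of which miR-145 rose and miR-155 fell in high fat steers while miR-27b stood at -0.08 and -0.06. The miR-15/16 family had 4 members, all below 0 on both diets (medians -0.46 and -0.38), and 0 passed on either diet. Its member miR-497 had means of -0.71 and -0.68.

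The families of miR-99, miR-100 and miR-125 had 4 members, of which miR-99a and miR-125b fell in control steers, with list medians of -0.40 and -0.09. The miR-23/24/27 clusters had 4 members, of which miR-23a fell in control steers (medians -0.20 and -0.14). The miR-30 family had 4 members with medians of -0.07 and 0.17, and 0 passed on either diet. In the DLK1-DIO3 cluster 3 of 38 miRNAs on the array were members, and 0 passed (medians 0.26 and 0.36). The single vascular member, miR-126, in the gene of the endothelial protein EGFL7, was at 0.66 and 0.57 without passing. The single members of the miR-29 and miR-181 families, miR-29a (-0.24 and -0.42) and miR-181a (0.12 and 0.25), and the 2 members of the cluster of miR-17 and miR-92 and its paralogs (medians 0.33 and 0.27) did not pass either. Of the 20 members numbered from miR-2286 upward, 2 rose and 2 fell in control steers and 2 rose and 5 fell in high fat steers, with medians of -0.19 and -0.12.

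Members encoded near each other had similar depot differences in some pairs and not in others. The arms miR-151 and miR-151* of one precursor were at 0.00 and 0.00 in control steers and 0.34 and 0.34 in high fat steers. The neighbours miR-195 and miR-497 were at -0.47 and -0.71 in control steers and -0.36 and -0.68 in high fat steers. In contrast, let-7c (0.17 and -0.09) and its neighbour miR-99a (-0.60 and -0.39) differed. Of the 91 miRNAs, 89 were matched to a gene of the RefSeq annotation. Several miRNAs known from fat were not members, as miR-143 was detected on 21 arrays, miR-21 on 23, miR-196a on 27 and miR-148a on 29. miR-22-3p missed the rule by a single array, in visceral fat of the control diet.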

How the data were processed

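Total RNA of 32 fat samples, 2 depots of 16 steers, was labelled with Cy3 and hybridized on single-colour Agilent miRNA arrays with 20 spots for each of 672 miRNAs. According to the file headers, the authors extracted each array with Feature Extraction 10.7.3.1 and deposited background-subtracted intensities, summed over the 2 to 4 probes of a miRNA and not scaled between arrays, with a detection call for each miRNA. The authors also deposited log2 values normalized in GeneSpring, which list features by number. These 244 features were matched to miRNAs by value (tolerance 1e-04) and used as an alternative. No spot was saturated (0 of 13440 on any array).

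Diet, depot and steer of each sample came from its title, and the steer paired the depots. Same-steer samples were not consistently alike beyond the group mean. The correlation of their deviations was -0.72 to 0.651, with a median of -0.198, and was above 0.1 for 6 of 16 steers. Among control steers only steer 308 (0.651) was above 0, while among high fat steers only 103 (-0.337), 303 (0.002) and 411 (-0.562) were not above 0.1. A negative correlation widens within-steer differences and a positive one narrows them. The part of this in the larger spread between control steers was not tested. The pairing was kept because both samples came from the same animal. The members, lists and tests were chosen with earlier results of these data known.

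Intensities were scaled so that the 75th percentile of the 91 members was equal on all arrays, raised to a common floor where lower (log2 -7.22, the lowest detected value of an array, as a median) and put on the log2 scale. The 16 within-steer differences of 233 miRNAs, those detected on at least 8 arrays and above the floor on some array, were fitted in limma 3.58.1 (R 4.3.3) with a mean for each diet. Both means and their difference were tested two-sided, with Benjamini-Hochberg adjustment over all 233 at 0.05. Single values per steer were compared by exact permutation over 12870 splits, whose smallest p is 0.000155. The fit was also run on simulated data, drawn as independent normal values with the same SD on both diets and no brightness shift. That run therefore does not test the unequal spread of the diets or the relation to brightness. Neighbouring and overlapping genes were taken from a RefSeq table of the ARS-UCD2.0 assembly, for names and neighbours only, since the array was designed on an older build.

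The miRNAs named are those with the largest diet differences, up to 5 kept in each direction, up to 3 in each direction past the threshold on 1 diet, and fixed ones (miR-10a, miR-10b, miR-103, miR-107, miR-145, miR-378, miR-27b, let-7a and miR-181a). Others are named where a count, a list or a relation called for it, after their values were seen. The alternatives were 6 other scalings, spot intensities, normexp background correction, the deposited values, other floors and filters, no replicate block, other tests and leaving out each steer. 3 more were added after seeing the data: each diet fitted on its own, leaving out 3 control steers, and a brightness covariate. The precision is limited by 8 steers a diet and by the signal of dim miRNAs over background.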

Additional observations from a re-analysis of the deposited data

Results flagged for a closer look

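Of 74 sets of 8 steers examined for a single far value, the within-steer differences of the 36 named miRNAs on each diet and the per-steer SD, 2 held one, where chance alone gives about 1 in 20. For let-7a on the control diet, the difference of steer 211 was 0.75, while the other 7 steers lay between -0.25 and 0.17. For miR-423-5p on the control diet, the difference of steer 405 was -0.41, while the other 7 lay between 0.63 and 1.46. Steer 405 also had the most positive brightness difference (visceral minus subcutaneous array) of the control diet, and the part of brightness in its miR-423-5p value was not tested.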

How the results depend on the processing

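The numbers of the 91 miRNAs past the threshold moved with the scaling, the spread and the test, and only rarely did any pass the diet difference. In the order control steers, high fat steers, kept, control alone and high fat alone, the main numbers were 20, 27, 13, 7 and 14. They were 0, 0, 0, 0 and 0 with the 75th percentile over all miRNAs of the array, 8, 42, 7, 1 and 35 without scaling, 5, 27, 5, 0 and 22 with labelling spike-ins, and 2, 54, 2, 0 and 52 after normexp correction. They were 4, 3, 1, 3 and 2 for the deposited values, 0, 7, 0, 0 and 7 for the methods' t-test with Bonferroni correction, 3, 49, 3, 0 and 46 for it with Benjamini-Hochberg adjustment, 0, 26, 0, 0 and 26 for exact tests of each miRNA, 3, 55, 3, 0 and 52 with each diet fitted on its own, and 15, 12, 6, 9 and 6 at equal brightness. Without control steers 108, 111 and 405, 35 and 47 passed, 29 were kept and 1 reversed.

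Control alone stood at 4 with quantile normalization, spot intensities and a floor of 1 and at 3 with miR-181a scaling, and high fat alone at 24 with the median and 28 with quantile normalization. With no replicate block, 26 and 36 passed, 19 were kept and 0 passed the diet difference. The diet difference was passed by 1 miRNA without scaling (miR-223, -1.31), 2 with quantile normalization (miR-378, 1.18, and miR-155, -1.24), 1 after normexp correction (miR-199b, -0.85), and 1, miR-140, without the 3 control steers, and by 0 under each other alternative. Without scaling the high fat depot difference of let-7a was -0.72, of miR-145 -0.19, of miR-2288 -0.71, of miR-320 -0.35, of miR-331 -0.18 and of miR-486 -0.14, and with spike-ins that of miR-320 was -0.0018. The cause was not tested.

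Leaving out 1 steer at a time, 10 (without control steer 209) to 26 (without control steer 108) passed in control steers and 17 (without high fat steer 303) to 36 (without control steer 405) in high fat steers. Kept miRNAs then numbered 8 to 20 (without control steers 209 and 111), control alone 2 to 9 and high fat alone 7 to 22, while 0 to 0 passed the diet difference or reversed. The per-steer SD differed by -0.26 to -0.17 between diets in these fits, with an exact permutation p of 0.0187, 0.0182 and 0.0393 without control steer 308, high fat steer 103 and high fat steer 303, and by -0.24 (exact permutation p = 0.0347) in the deposited values. Its sign turned with quantile normalization (0.0426, exact permutation p = 0.7204) and after normexp correction (0.0911, exact permutation p = 0.2284).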

Other observations

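Outside the 91 miRNAs, the diet difference passed the limma test for 3 of the other miRNAs tested, miR-450 (-1.19, adjusted p = 7e-04), miR-130b (-1.02, adjusted p = 0.00365) and miR-424 (-1.02, adjusted p = 0.00651). All 3 were lower in visceral than in subcutaneous fat on the high fat diet. They were detected on 16, 12 and 16 arrays, and on the control diet their depot difference was exactly 0 because both depots were at the floor in every steer. These values therefore hold no depot difference on the control diet to compare with.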
